A study of Mus musculus with 3 samples.

Results

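Potassium channel genes, chosen as all rows whose symbol begins with Kcn followed by a letter, with the antisense RNA Kcnq1ot1 left out, made up 97 of the 24411 genes tabulated. The symbols fell into 19 subfamilies named by the letter after Kcn, from Kcna to Kcnv. The 97 comprised pore-forming subunits, auxiliary subunits and 3 noncoding RNAs transcribed opposite channel genes. All 97 symbols matched exactly 1 gene of the GENCODE M21 annotation of mouse genome build GRCm38, from which positions are given.

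The libraries came from microglia, the resident macrophages of the brain, of C57BL/6J mice. The genotype, labelled cKO, was Mir137loxP/loxP;Tmem119-CreERT2: both copies of the microRNA gene Mir137 carry loxP sites and are deleted when tamoxifen activates a Cre recombinase driven from the microglial gene Tmem119. Tamoxifen was given for 7 days at 7 to 8 weeks of age, per the series design, while the sample labels gave the age as 6 to 8 weeks. The same 3 libraries were labelled as treated with an inhibitor of Pu.1, the transcription factor that specifies macrophages and microglia; the sources used here do not give its name, dose or route. There was thus 1 group with 3 replicates, and levels could be described, while neither the deletion nor the inhibitor could be assessed for an effect. The design text mentions 4 mice without linking them to libraries, so the spread between replicates may be technical.

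Potassium channels let potassium leave or enter the cell along its electrochemical gradient and so set the resting membrane potential. Tandem-pore-domain channels (Kcnk) carry background currents, and inward rectifiers (Kcnj) pass inward current more readily than outward current. Voltage-gated channels (Kcna, Kcnb, Kcnc, Kcnd, Kcnh, Kcnq) open on depolarization. In microglia, potassium currents are known for their part in process motility and, through loss of potassium from the cell, in activation of the NLRP3 inflammasome.

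The libraries held 15710750 to 17180404 estimated counts. All 8 microglial marker genes examined were detected, meaning an FPKM (fragments scaled to transcript length and library size) of at least 1 in each of the 3 libraries, with a summed level of 12260 to 12815 FPKM. Markers of other brain and blood cells were present too. All listed markers were detected for neutrophils (7 of 7, summed 13290 to 14687 FPKM), endothelial cells (6 of 6, 2195 to 2366), astrocytes (6 of 6, 154 to 170), oligodendrocytes (6 of 6, 284 to 338), mural cells of vessels (5 of 5, 243 to 276), choroid plexus (5 of 5, 6219 to 7101) and border macrophages (4 of 4, 157 to 179). Neuronal markers (2 of 7, 17.0 to 19.3) and lymphocyte markers (2 of 6, 18.8 to 23.0) were lower, and no listed marker was at 0 in all 3 libraries. In such bulk samples, fewer cells of a type and less RNA per cell cannot be told apart.

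Few potassium channel genes were expressed above the detection threshold, and 1 gene, Kcnk6, dominated the family. Of the 97 genes, 19 (19.6%) were detected, against 47.8% of all genes. Another 62 had counts without reaching 1 FPKM in every library, and 16 had no count in any. The median over the 97 genes of log2(FPKM + 1) was 0.24, 0.23 and 0.19 in replicates 1, 2 and 3, a mean of 0.22 ± 0.03 (SD, n = 3), against 0.95 ± 0.02 over all genes. Together the family took 0.0826 ± 0.0019% of the counts of a library (SD, n = 3), and the 19 detected genes held 92.1 ± 0.58% of the family's counts.

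**Figure D1:**
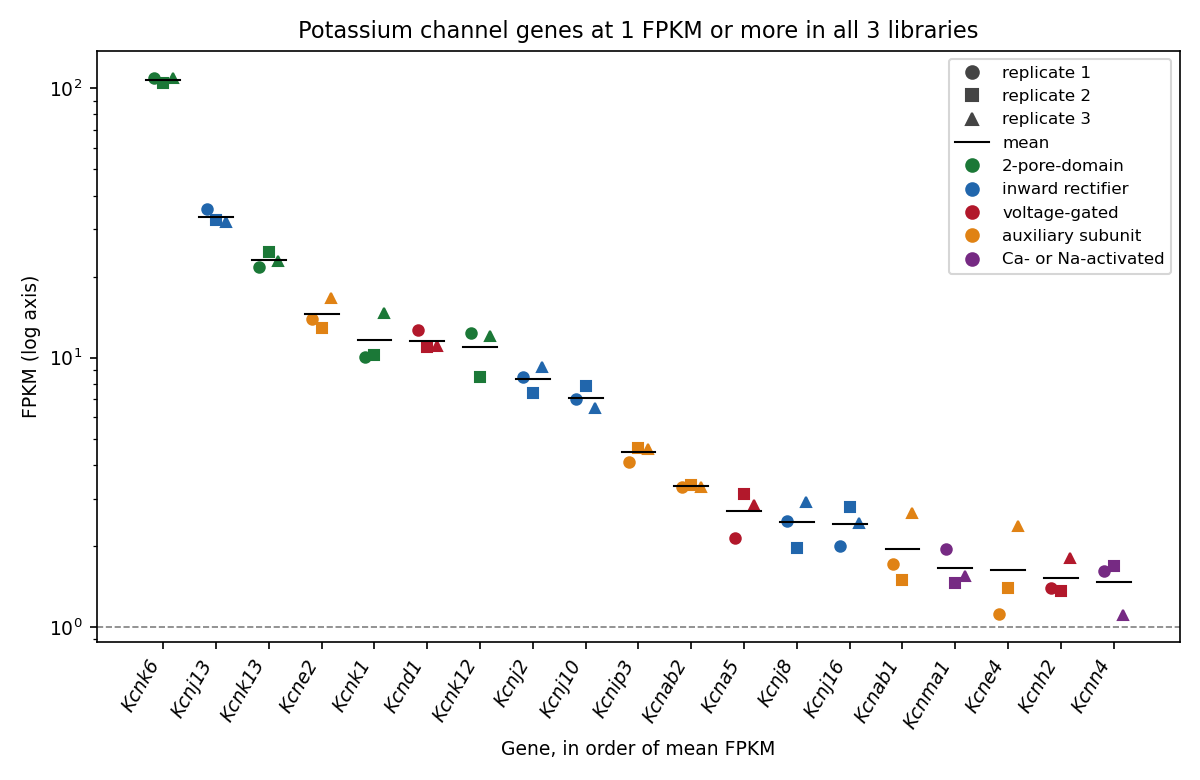
FPKM (log axis) of the 19 potassium channel genes at or above 1 FPKM (dashed line) in all libraries, with 1 point per replicate, a bar at the mean and colour for the kind of channel. Kcnk6 stands at 104 to 110 FPKM, and no other gene exceeds 35.6 FPKM in any library.

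The order of the 9 subfamilies with a detected member was led by the tandem-pore and inward rectifier genes. The 14 Kcnk genes summed to 155 ± 5.15 FPKM, 58.0 ± 0.34% of the family's FPKM, and the 15 Kcnj genes to 55.0 ± 1.47 FPKM or 20.5 ± 0.64% (SD, n = 3, here and below). Next came Kcne at 17.2 ± 2.84, Kcnd at 12.3 ± 0.81, Kcna (with the beta subunits Kcnab) at 11.3 ± 0.40 and the Kcnip genes at 5.16 ± 0.28 FPKM. Ranges over the libraries did not overlap between neighbours in this order down to Kcnip, although the lowest Kcnd sum, 11.73, lay only just above the highest Kcna sum, 11.72. Kcnn at 2.98 ± 0.37, Kcnm at 2.72 ± 0.55 and Kcnh at 2.63 ± 0.19 FPKM overlapped and could not be ordered.

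The other 10 subfamilies had no detected gene. Highest members reported here were Kcnq1 at 0.59 ± 0.17, Kcnt1 at 0.49 ± 0.14, Kcnrg at 0.21 ± 0.07, Kcnc4 at 0.21 ± 0.18, Kcns3 at 0.17 ± 0.02, Kcng2 at 0.15 ± 0.06, Kcnv2 at 0.05 ± 0.03 and Kcnf1 at 0.03 ± 0.03 FPKM. Kcnu1, which encodes a potassium channel of sperm, had no count. Thus none of the 10 genes of the silent modifier subfamilies (Kcnf, Kcng, Kcns, Kcnv), which alter Kv2 channels and form no channel alone, was detected.

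**Figure D2:**
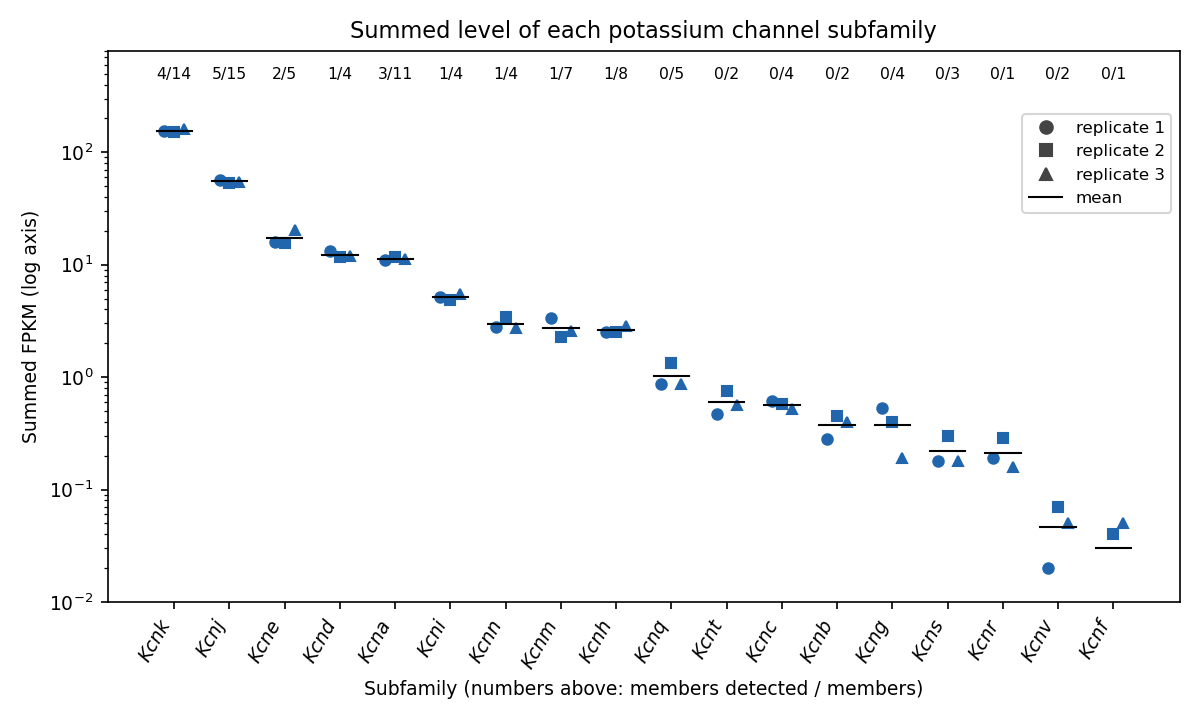
Summed FPKM (log axis) of each potassium channel subfamily with a count, 1 point per replicate and a bar at the mean, with the number of detected genes over the number of genes printed above; a sum of 0 (Kcnf in replicate 1) is not drawn. The Kcnk genes lie at 151 to 161 FPKM and the Kcnj genes at 53.7 to 56.6.

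Among the tandem-pore genes, Kcnk6 (chromosome 7, 29221926 to 29232515) encodes TWIK-2, a channel through which macrophages lose potassium during NLRP3 activation. It was at 109, 104 and 110 FPKM in replicates 1, 2 and 3, a mean of 108 ± 2.97. The values lay close together, and the lowest was far above the highest value of the next gene in the family, 35.6 FPKM. Kcnk6 ranked 700 among all 24411 genes by mean FPKM. It alone took 49.7 ± 0.56% of the family's counts and 40.2 ± 0.47% of its FPKM. The part of microglia and of the other cells whose markers were present in the Kcnk6 level was not tested.

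Kcnk13 (chromosome 12, 99964499 to 100062682) encodes THIK-1, the channel held to carry the tonic potassium current of resting microglia and to respond to ATP through P2ry12. Its level was 21.7, 24.7 and 22.8 FPKM, a mean of 23.1 ± 1.49. Kcnk6 exceeded it by 4.69 ± 0.41 times within the same library. Kcnk12 (chromosome 17, 87745801 to 87797994) encodes THIK-2, the closest relative of THIK-1, with which it can assemble. It was at 12.4, 8.46 and 12.03 FPKM, low in replicate 2, and its mean of 10.9 ± 2.16 lay below Kcnk13 in every library, by 2.19 ± 0.63 times.

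Kcnk1 (chromosome 8, 125995170 to 126030685), which encodes TWIK-1, was at 10.1, 10.3 and 14.6 FPKM, high in replicate 3, with a mean of 11.7 ± 2.59. TWIK-1 is well known from astrocytes, whose 6 markers summed to 164, 170 and 154 FPKM, lowest where Kcnk1 was highest. Of these markers, all but Aldh1l1 were lowest in replicate 3. The choroid plexus marker sum (6219, 6521 and 7101 FPKM) had the order of Kcnk1. The mural sum (253, 243 and 276 FPKM) was also highest in replicate 3, and the other listed sums were highest in replicate 2. The part of astrocytes or other cells in the Kcnk1 level was not tested. Of the remaining tandem-pore genes none was detected: Kcnk2, which encodes the stretch- and lipid-sensitive channel TREK-1, was at 0.34, 1.18 and 1.03 FPKM, Kcnk3 at 0.58 ± 0.19 and Kcnk5 at 0.35 ± 0.06. The 3 tandem-pore genes without a count were Kcnk15, Kcnk16 and Kcnk18.

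Promoter sequence is shown for Kcnk13 and for the inward rectifier gene Kcnj2, as genes with a known role in microglia, because the libraries were labelled with a Pu.1 inhibitor and Pu.1 binds DNA around a GAGGAA core. The sequences are the 250 bases before the gene start in RefSeq on GRCm38.p6, on the + strand, at chr12:99964249-99964498 for Kcnk13 and chr11:111065914-111066163 for Kcnj2, with capitals marking GAGGAA or its reverse complement TTCCTC.
Kcnk13: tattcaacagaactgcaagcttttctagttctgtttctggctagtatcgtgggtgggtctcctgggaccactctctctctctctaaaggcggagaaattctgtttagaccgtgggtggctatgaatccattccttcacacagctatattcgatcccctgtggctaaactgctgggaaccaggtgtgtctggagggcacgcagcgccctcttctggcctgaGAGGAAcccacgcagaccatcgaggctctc
Kcnj2: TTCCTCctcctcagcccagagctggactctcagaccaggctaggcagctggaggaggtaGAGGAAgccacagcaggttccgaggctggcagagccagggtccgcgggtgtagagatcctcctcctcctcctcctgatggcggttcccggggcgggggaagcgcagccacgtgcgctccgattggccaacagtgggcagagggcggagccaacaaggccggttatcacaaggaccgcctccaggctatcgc
Kcnk13 holds 1 match, which begins 30 bases before the start, and Kcnj2 holds 2, beginning 191 and 250 bases before it. The core is short and common: on either strand it stood in such a window of 6986 of 27025 genes with an entry (25.9%), of 21 of the 71 potassium channel genes with an entry (29.6%) and of 8 of the 17 detected ones with an entry (47.1%), where a gene with several listed starts counted once if any window matched. The share over all detected genes was not computed, so the 47.1% has no like background and says nothing of enrichment. The longer GAGGAAGT, which contains the core, was in the windows of 2.79% of all genes and of 0 of these 71. A match describes letters and is no evidence of binding. For the remaining 26 genes, among them Kcnk6, Kcnd1 and Kcna1, no window was used.

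Among inward rectifiers, Kcnj13 (chromosome 1, 87386363 to 87394729) was the highest. It encodes Kir7.1, a channel of the choroid plexus and of the pigment epithelium of the eye, and was at 35.56, 32.59 and 32.04 FPKM, a mean of 33.4 ± 1.89. Kcne2, an auxiliary gene of the choroid plexus epithelium (chromosome 16, 92292389 to 92298129), was at 13.9, 12.9 and 16.7 FPKM, a mean of 14.5 ± 1.94, and Kcnj13 exceeded it by 2.33 ± 0.36 times. The 5 choroid plexus markers (Ttr, Folr1, Enpp2, Clic6 and Otx2), all detected, summed to 6219, 6521 and 7101 FPKM, highest in replicate 3 as Kcne2 was. Ttr, Enpp2 and Clic6 were highest there, Folr1 in replicate 2 and Otx2 in replicate 1. Kcnj13 was lowest in replicate 3, close to replicate 2. Its counts were not called as different between libraries by the chi-square test given below (adjusted p 0.217). The part of choroid plexus cells in the levels of Kcnj13 and Kcne2 was not tested. The annotated exons of Kcnj13 share 623 bases with Gigyf2 on the opposite strand, a gene at 9.70 ± 0.71 FPKM, and with strand unstated reads of the shared bases cannot be told apart.

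Kcnj2 (chromosome 11, 111066164 to 111076821) encodes Kir2.1, the strong inward rectifier recorded in cultured microglia and in endothelium. It was at 8.48, 7.38 and 9.22 FPKM, a mean of 8.36 ± 0.93, and was low in replicate 2. Kcnk13 exceeded Kcnj2 by 2.79 ± 0.48 times, and their ranges did not overlap. The 6 endothelial markers summed to 2195, 2366 and 2210 FPKM, highest where Kcnj2 was lowest. The markers were divided: Cldn5, Ly6c1 and Itm2a were highest in replicate 2, and Pecam1, Cdh5 and Slc2a1 in replicate 3, as Kcnj2 was. The part of endothelial cells in the Kcnj2 level was not tested.

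Kcnj10 (chromosome 1, 172341210 to 172374085) encodes Kir4.1, the main inward rectifier of astrocytes and oligodendrocytes, and Kcnj16 (chromosome 11, 110968033 to 111027968) its partner Kir5.1. Kcnj10 was at 7.01, 7.83 and 6.48 FPKM, a mean of 7.11 ± 0.68, and Kcnj16 at 2, 2.78 and 2.43, a mean of 2.40 ± 0.39. The astrocyte marker sum followed the order of Kcnj10 over the libraries, high in replicate 2 and low in replicate 3. So did the oligodendrocyte, microglial, border macrophage and neuronal marker sums, so the order is not particular to astrocytes. The part of these cells in the Kcnj10 level was not tested. Kcnj10 and Kcnj2 overlapped in range and could not be ordered.

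Kcnj8 (chromosome 6, 142564837 to 142571614) encodes Kir6.1, the pore of the ATP-sensitive channel of vessels, and was at 2.47, 1.97 and 2.92 FPKM, a mean of 2.45 ± 0.48. Abcc9, the sulfonylurea receptor that completes that channel in pericytes, was at 1.38, 1.62 and 1.70 FPKM, while Abcc8, the receptor of the pancreatic form, was at 0.02 ± 0.04, and Kcnj11, the pore of that form, was not detected. The 5 mural markers (Rgs5, Pdgfrb, Vtn, Acta2 and Notch3), all detected, summed to 253, 243 and 276 FPKM. The sum, Rgs5 and Notch3 had the same order over the libraries as Kcnj8, while Pdgfrb, Vtn and Acta2 did not. Counts of Kcnj8, 81, 59 and 91, were not called as different between libraries by the chi-square test given below (adjusted p 0.119). The part of mural cells in the Kcnj8 level was not tested. The other 10 inward rectifier genes were not detected, with Kcnj9 at 0.47 ± 0.03 and Kcnj12 at 0.35 ± 0.21 FPKM the highest, and Kcnj1, Kcnj4 and Kcnj6 had no count.

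Voltage-gated channels were represented by 3 detected genes of 30. Kcnd1 (chromosome X, 7822289 to 7838280) encodes Kv4.1, a subunit of fast inactivating currents, and was at 12.6, 11.0 and 11.1 FPKM, a mean of 11.6 ± 0.93. Its relatives Kcnd2 and Kcnd3, the usual Kv4 genes of neurons and heart, were at 0.28 ± 0.08 and 0.44 ± 0.16 FPKM. Of the Kv4 partners, Kcnip3 (chromosome 2, 127456498 to 127522094), which encodes the calcium sensor and transcriptional repressor DREAM, was at 4.11, 4.64 and 4.59 FPKM, a mean of 4.45 ± 0.29. The other Kv4 partners were not detected, with Kcnip4 at 0.51 ± 0.29, Kcnip2 at 0.13 ± 0.19, Kcnip1 at 0.08 ± 0.14, Dpp6 at 0.24 ± 0.13 FPKM and Dpp10 without a count.

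Kcna5 (chromosome 6, 126532551 to 126535412) encodes Kv1.5 and was the highest pore-forming Kv1 gene in FPKM, at 2.14, 3.11 and 2.83, a mean of 2.69 ± 0.50. By mean count Kcna1 stood higher, at 134 against 120 for Kcna5. Kcna3 (chromosome 3, 107036169 to 107038070) encodes Kv1.3, known from T cells and from activated microglia, and was at 0.66, 1.06 and 0.25 FPKM, a mean of 0.66 ± 0.41 that rested on 19, 28 and 7 counts. The lowest Kcna5 value was above the highest Kcna3 value. In GENCODE M21 Kcna3 has a single exon of 1902 bases, and its effective length was 1690 bases. The T cell markers Cd3e and Cd3d were at 0.26 ± 0.23 and 0.23 ± 0.20 FPKM. Among Kv1 beta subunits, which bind the channel inside the cell and resemble aldo-keto reductases, Kcnab2 (chromosome 4, 152390742 to 152477871) was at 3.31, 3.38 and 3.30 FPKM, a mean of 3.33 ± 0.04 with little spread. Kcnab1 was at 1.72, 1.49 and 2.64 FPKM, high in replicate 3, and Kcnab3 at 0.76 ± 0.17.

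Kcnh2 (chromosome 5, 24319589 to 24351604), the ERG channel gene known from cardiac repolarization, was the third voltage-gated gene detected, at 1.40, 1.36 and 1.80 FPKM. No KCNQ gene was, and Kcnq1, which pairs with Kcne2 in epithelia, stood at 0.51, 0.79 and 0.47 FPKM, far below Kcne2. Kcne4, an auxiliary subunit that inhibits several Kv channels, was at 1.12, 1.40 and 2.38 FPKM, high in replicate 3.

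Of the 8 calcium- or sodium-activated pore genes, 2 were detected and both were near the threshold. Kcnma1 (chromosome 14, 23289431 to 24014491), the gene of the large-conductance BK channel, was at 1.95, 1.46 and 1.55 FPKM, a mean of 1.65 ± 0.26. Its smooth muscle beta subunit Kcnmb1 was at 0.95 ± 0.24, and the 4 gamma subunits were not detected, with Lrrc38 the highest at 0.23 ± 0.13 FPKM. Kcnn4 (chromosome 7, 24370263 to 24386690) encodes the intermediate-conductance channel KCa3.1, studied in activated microglia, and was at 1.61, 1.68 and 1.11 FPKM, a mean of 1.47 ± 0.31. It was above Kcna3 in each library, by 2.82 ± 1.47 times.

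Of 25 listed genes outside the family that move potassium or act with its channels, 16 were detected, against 47.8% of all genes. Detection differed by kind, and neither the Kv4 partners Dpp6 and Dpp10 nor the 4 BK gamma subunits were detected. The sodium-potassium pump, which sustains the gradient, had 6 of its 7 genes detected, the subunit gene Atp1b3 being highest at 208 ± 3.30 FPKM. Of 5 cation-chloride cotransporters 4 were detected, Slc12a2 being highest at 50.0 ± 1.24, and the neuronal Slc12a5 was at 0.27 ± 0.12 FPKM. P2rx7, the ATP-gated channel whose opening lets potassium out, was at 79.6 ± 2.30, P2rx4 at 32.1 ± 3.56 and the inflammasome sensor gene Nlrp3 at 27.9 ± 2.95 FPKM. The lysosomal potassium channel gene Tmem175 was at 15.6 ± 1.12. P2ry12 was at 1608 ± 7.79 FPKM, 69.9 ± 4.15 times Kcnk13.

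Levels of neighbouring genes were often not separable. Among the 18 pairs of neighbours in the order of the 19 detected genes by mean FPKM, 6 had ranges that did not overlap over the libraries. These were Kcnk6 over Kcnj13, Kcnj13 over Kcnk13, Kcnk13 over Kcne2, Kcnj10 over Kcnip3, Kcnip3 over Kcnab2 and Kcnab2 over Kcna5. In the run of 6 genes from Kcne2 to Kcnj10 each overlapped the next, as in the run of 8 from Kcna5 down to Kcnn4.

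The detection line passed through a dense part of the family. Just inside it were Kcnn4 at 1.47, Kcnh2 at 1.52 and Kcne4 at 1.63 FPKM, and just outside were Kcnmb1 and Kcnn2 at 0.95 each and Kcna1 at 0.94. In all, 6 genes reached 1 FPKM in some library but not in all: Kcnmb1, Kcnn2, Kcna1, Kcne3, Kcnk2 and Kcna3. At 10 or more counts in each library, 38 genes counted as present, so 19 genes with such counts were below the FPKM line. Kcna2, a Kv1 gene of axons, shows how length enters: its mean count of 63.0 put it at rank 20 in CPM (counts scaled to library size alone) and at rank 38 in FPKM, over an effective length, the span open to fragments, of 11279 bases. For Kcna1 the effective length, 8677 bases, exceeded its 4780 annotated exon bases, and for Kcnj12 it was 4201 against 2750 in GENCODE M21, and their FPKM over the annotated bases were not computed. Kcne3 had a mean of 10 counts over 725 bases and was at 0.85 FPKM. The 16 genes without a count allow up to 0.175, 0.191 and 0.183 CPM in replicates 1, 2 and 3, the level of 3 counts, limits that cover counting error only.

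**Figure D3:**
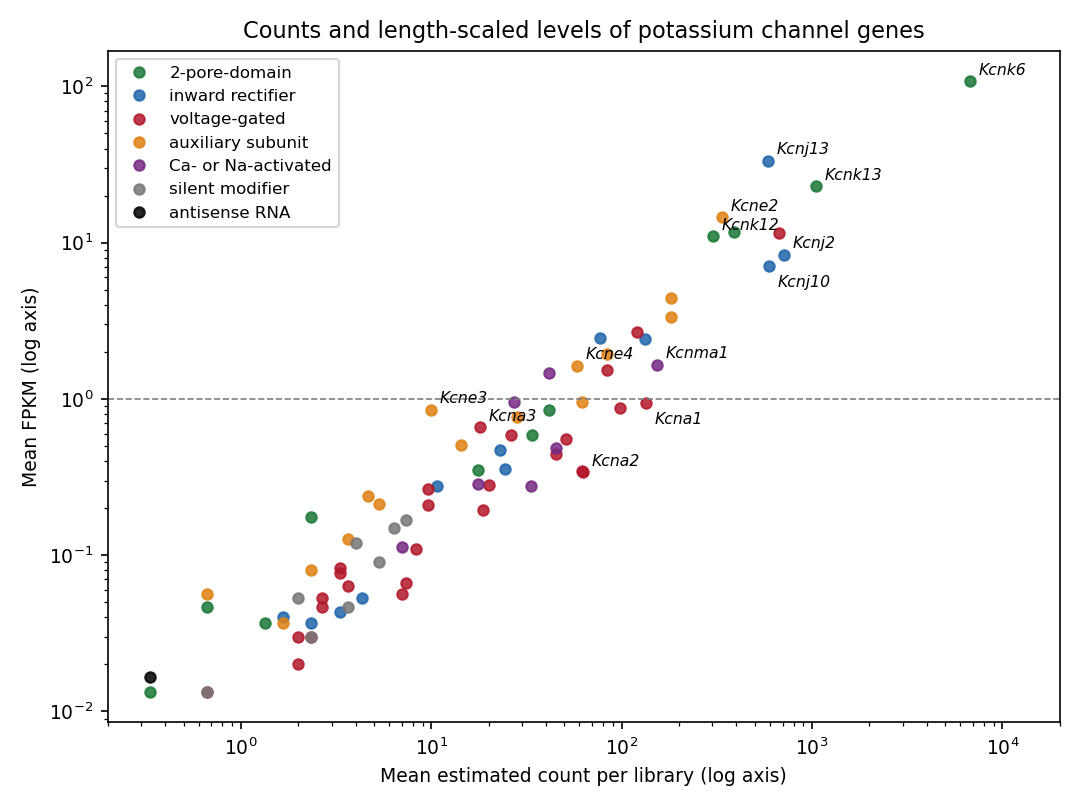
Mean FPKM against mean estimated count per library (both log axes) for the potassium channel genes with a count, 1 point per gene, coloured by the kind of gene, with the 1 FPKM line dashed. At similar mean counts of 58.3 and 63.0, Kcne4 at 1.63 FPKM lies above the longer Kcna2 at 0.34, and Kcnk6 stands apart with a mean count of 6736.

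The replicates were then compared with each other, which compares libraries and not conditions. Counts were tested for homogeneity by chi-square (Benjamini-Hochberg adjusted over all 13246 genes tested), which called 16 of the 38 potassium channel genes tested, 42.1%, against 41.4% of all genes tested, so their share was near the background. Most of the differences were small: in 10 of the 16 the highest library exceeded the lowest by under 1.5 times in CPM. For Kcnk6 that ratio was 1.05 at an adjusted p of 0.0275, with 7142, 6236 and 6831 counts, and for Kcnk13 it was 1.13 at 0.0447. Each of the 16 calls was lost when 1 library or another was left out. Leaving out the most deviating of 3 libraries removes much of a difference, so such a loss says little about a call. The share of all genes losing their call was not computed. For Kcnk6 the adjusted p was 0.923 without replicate 2, and for Kcnk13 it was 0.155 without replicate 1 and 0.543 without replicate 2.

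Ratios above 2 were seen in 5 of the 16, all with few counts. Kcnk2 had 18, 58 and 49 counts, low in replicate 1, a ratio of 3.53 at an adjusted p of 5.1e-05 by the chi-square test, which rose to 0.437 without replicate 1. Kcnj12 had 21, 12 and 40 counts (ratio 3.19, adjusted p 0.0016, and 0.356 without replicate 3). Kcne4 had 42, 48 and 85 (2.12, adjusted p 4.7e-04, and 0.467 without replicate 3). Kcna6 had 73, 48 and 32 (2.18, adjusted p 0.0038, 0.123 without replicate 1 and 0.189 without replicate 3), and Kcnd3 had 28, 54 and 54 (2.11, adjusted p 0.0083, and 0.892 without replicate 1). Among better counted genes, Kcnk1 had 350, 326 and 485 counts (1.45, adjusted p 1.5e-07, and 0.883 without replicate 3) and Kcnk12 had 355, 222 and 329 (1.46, adjusted p 1.2e-04, and 0.847 without replicate 2).

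The other called genes were Kcne2, Kcnd1, Kcnj2, Kcnj10, Kcna5, Kcnab1 and Kcnma1, with ratios of 1.15 (Kcnd1) to 1.77 (Kcnab1). For Kcne2 the adjusted p was 0.0694 without replicate 2 and 0.546 without replicate 3, and for Kcnab1 it was 0.546 without replicate 3. For Kcnd1, Kcna5 and Kcnma1 it was 0.933, 0.597 and 0.732 without replicate 1 and 0.0655, 0.127 and 0.127 without replicate 2. For Kcnj2 and Kcnj10 it was 0.263 and 0.359 without replicate 2, and for Kcnj10 0.138 without replicate 3. Of the 16 genes, 4 were highest in replicate 1, 5 in replicate 2 and 7 in replicate 3, while 6 were lowest in replicate 1, 8 in replicate 2 and 2 in replicate 3.

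**Figure D4:**
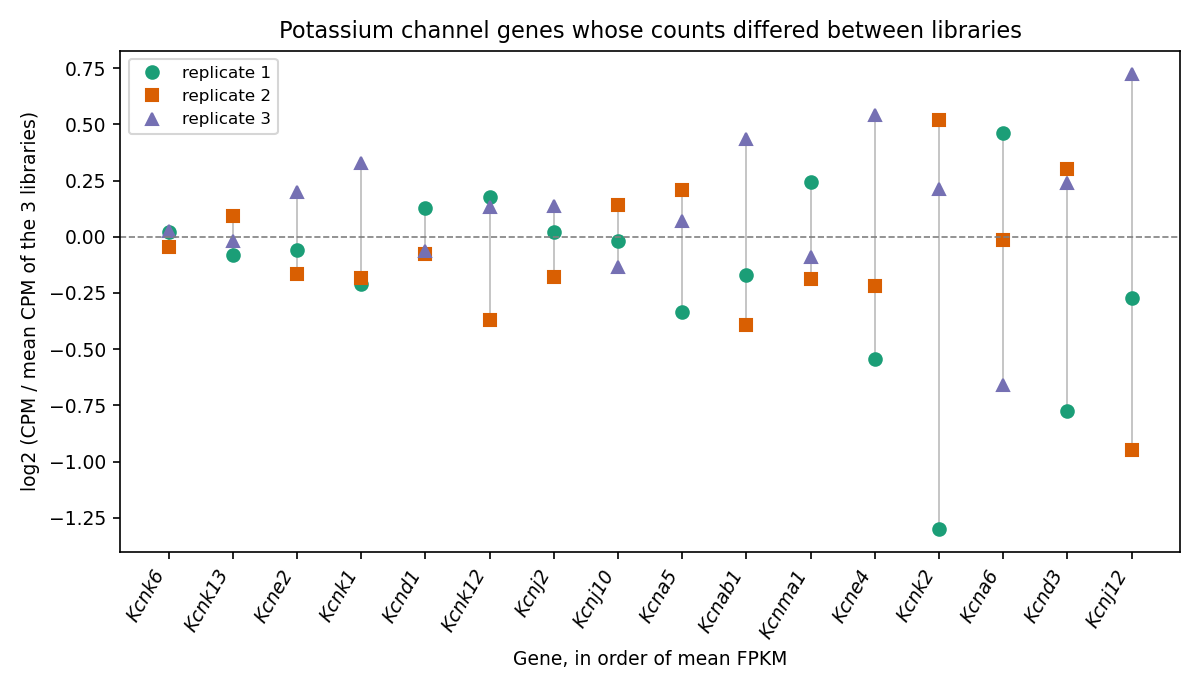
Log2 ratio of TMM-normalised CPM in each replicate to the mean of the 3 replicates (dashed line at 0) for the 16 potassium channel genes whose counts differed between libraries. Points of Kcnk6 and Kcnk13 lie close to 0, and those of Kcnk2 and Kcnj12, with few counts, lie far apart.

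When the variance also held the spread that all genes share between libraries (a biological coefficient of variation of 0.0827), only Kcnk2 of the 38 was called, at an adjusted p of 0.0127, against 1.4% of all genes. The coefficient had a median of 0.185 over the 38 tested genes and 0.0866 over all genes tested, and ran from 0.0494 for Kcnk6 to 0.274 for Kcnk2. The 38 genes had a median of 70.0 counts per library against 424 over all genes tested.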

How the data were processed

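Total RNA of microglia was sequenced in 3 libraries of 1 group. The authors deposited estimated counts per gene, not normalised between libraries, and FPKM values, scaled to library size and effective gene length. Per the submitters' processing notes, the tools included RSEM, DESeq2 and STAR 2.7.9a, and the builds were GRCm38 and mm10. The sources used here give no settings, gene annotation, library kit or strandedness. Of the deposited estimated counts 4.07% were not whole, but none of those of the 97 potassium channel genes, so rounding left these unchanged. There were 0 columns of other samples.

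Library totals were 17180404, 15710750 and 16356125 estimated counts, and 3 counts correspond to 0.175, 0.191 and 0.183 CPM. Detection meant 1 FPKM or more in every library, and levels used log2(FPKM + 1). Effective lengths were recovered from count, FPKM and library total. Counts were rounded, filtered by the default of edgeR 4.0.16 (R 4.3.3), which kept 13246 genes, and TMM-normalised. A chi-square test of homogeneity given effective library sizes, adjusted by Benjamini-Hochberg at 0.05, was tested on simulated data; it responds to spread beyond counting error. Dispersions were estimated with an intercept alone. Alternatives were size factors of DESeq2 1.42.0, no filter, a variance with the common dispersion, other thresholds, units and pseudocounts, and each library left out. The text names every detected gene, the highest gene of each subfamily without one, genes whose counts differed between libraries, and 11 genes with known roles; other names were added after values were seen. Some genes that fall under this rule are not reported here. The genes and lists were chosen with earlier results of these data known.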

Additional observations from a re-analysis of the deposited data

How the results depend on the processing

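No paired analysis was possible because the libraries form a single group. The number of detected genes was 24 at 0.5 FPKM, 13 at 2 FPKM, 38 at 10 counts and 19 to 22 with 1 library left out, against 19. The median level of the family, 0.22 with a pseudocount of 1, was -1.93 with a pseudocount of 0.1, 1.12 over the genes that passed the edgeR filter and 0.53 with TMM-normalised CPM. Rescaling to TPM (FPKM divided by their library sum) multiplies all genes of a library by 1 factor, and the subfamily sums became 287 for Kcnk, 102 for Kcnj, 31.9 for Kcne, 22.7 for Kcnd, 20.8 for Kcna, 9.53 for Kcnip, 5.49 for Kcnn, 5.02 for Kcnm, 4.85 for Kcnh, 1.87 for Kcnq, 1.10 for Kcnt, 1.05 for Kcnc, 0.69 for Kcnb, 0.69 for Kcng, 0.40 for Kcns, 0.39 for Kcnrg and 0.086 for Kcnv. By CPM in place of FPKM, Kcnk6 stayed at rank 1, Kcnk13 moved from 3 to 2, Kcnj2 from 8 to 3 and Kcnj13 from 2 to 6. The count of genes that differed between libraries, 16 of 38, was 16 with DESeq2 size factors, 31 of 81 (38.3%, against 37.8% of all genes) without a filter and 1 of 38 (2.63%, against 1.4%) with the common dispersion. It was 10 of 40 without replicate 1 (25.0% against 28.2% of all genes), 8 of 39 without replicate 2 (20.5% against 18.6%) and 12 of 40 without replicate 3 (30.0% against 23.5%), of which 9, 7 and 9 were among the 16. Without a filter 15 of the 16 were called again, and Kcnk13 was at an adjusted p of 0.0517. Of the 78 undetected genes, 19 had at least 10 counts in every library and 16 had none in any, and how depth affects detection was not tested.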

Other observations

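Of the 97 genes, 5 detected ones share exon bases with another annotated gene, namely Kcnab1, Kcnab2, Kcnj13, Kcnk1 and Kcnma1, and of the partner genes with a value in the table only Gigyf2, the partner of Kcnj13, had a mean above 1 FPKM.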
